A study of Mus musculus with 47 samples.

Results

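The comparison set leukaemic spleens with a high level of Flt3 against spleens with a low level, all taken from mice whose spleens had a high level of Vpreb1. Of 47 arrays in all, 1 per mouse, 15 were kept because Vpreb1 was above 7 on the deposited log2 scale. Of these, 9 had Flt3 above 7 and are called Flt3-high, and 6 had Flt3 at or below 7 and are called Flt3-low. The arrays were thus chosen by measured levels of both genes, so the levels of Flt3 and Vpreb1 are a description. Neither gene was tested for a difference between the sides. On the log2 scale a difference of 1 is a doubling, and values near 5 lie close to the floor of the table, whose 25th percentile was 5.08.

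All mice carried a Cre transgene under the beta-actin promoter (Tg(ACTB-cre)2Mrt), a Sleeping Beauty transposase knocked into Rosa26 (Gt(ROSA)26Sortm2(sb11)Njen) and a T2/Onc2 transposon concatemer of line 6113 or line 6070. The beta-actin promoter is active in nearly every tissue, so the transposon was mobile in the whole animal and each leukaemia carried its own insertions. Every spleen had the same label, an undifferentiated myeloid leukaemia at the terminal stage, and was frozen whole. Of the Flt3-high mice, 6 were of line 6113 and 3 of line 6070, 3 had an Erg insertion label, and the age label was 62.4 ± 11.7 (SD, n = 9; its unit is not given). Of the Flt3-low mice, 3 were of each line, 2 had an Erg insertion label, and the age label was 63.0 ± 12.2 (SD, n = 6). The sex label did not match the Xist level in 6 of the 15 kept arrays, and arrays are named here by their titles, such as Female 12, without reading a sex from them.

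Flt3 encodes a receptor tyrosine kinase of multipotent and early lymphoid progenitors. Its ligand drives RAS-MAP kinase and PI3 kinase signalling, and STAT5 when the receptor carries activating mutations, and the receptor is silenced as cells commit to the B lineage. Vpreb1 encodes part of the surrogate light chain, which pairs with the immunoglobulin heavy chain in the pre-B cell receptor of B cell precursors. Its partner in that chain is Igll1, and Ebf1 is the transcription factor that starts the B cell programme. Because whole spleens were measured, fewer cells of a type and less RNA per cell cannot be told apart.

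The Flt3-high arrays spanned a range of Flt3 levels, and the Flt3-low arrays lay mostly near the floor. Flt3 was 10.31 in Male 3, 10.24 in Female 15, 10.11 in Female 1, 10.10 in Male 16, 10.07 in Female 12, 9.72 in Male 6, 9.56 in Male 4, 8.38 in Female 13 and 7.48 in Female 19. In the Flt3-low arrays it was 6.503 in Female 9, 5.80 in Female 8, 5.52 in Male 2, 5.31 in Male 17, 5.28 in Female 4 and 5.20 in Male 10. The arrays on either side of the Flt3 cut were therefore Female 19 and Female 9. Vpreb1 ran from 8.47 to 11.06 in the Flt3-high arrays and from 7.28 to 10.92 in the Flt3-low arrays. The array just inside the Vpreb1 cut was Female 8 at 7.28, and the one just outside was Male 12 at 6.71. None of the 32 arrays under the Vpreb1 cut had Flt3 above 7: their Flt3 levels ran from 5.18 to 6.24 with a median of 5.30, so the same contrast could not be made there.

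**Figure D1:**
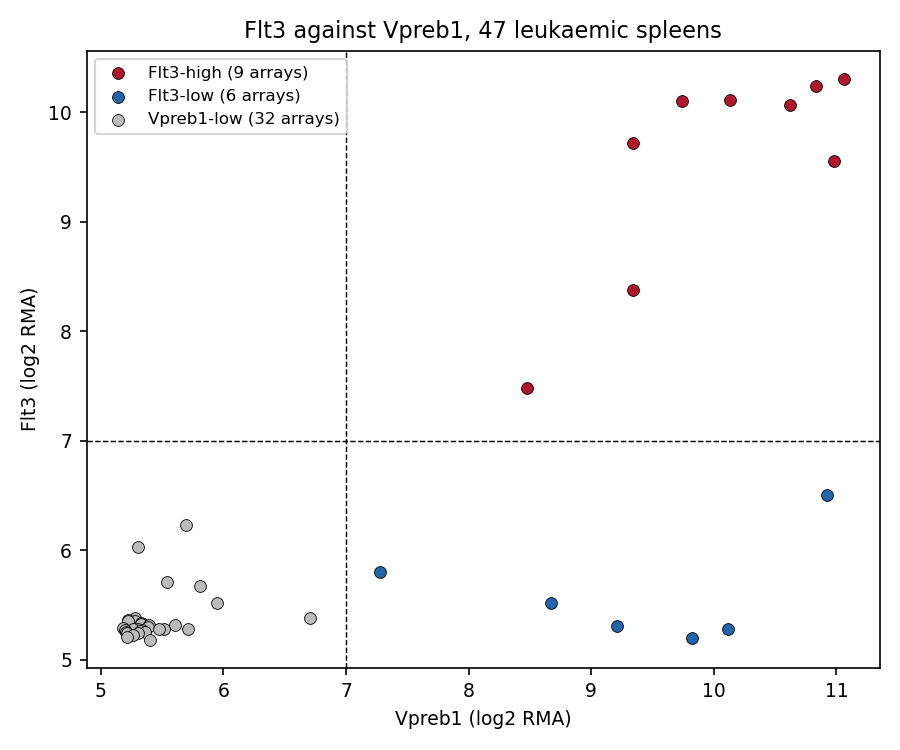
Flt3 against Vpreb1, both as deposited log2 RMA values, in the 47 arrays. Dashed lines mark the level of 7 for each gene. No array lies above the Flt3 line and left of the Vpreb1 line, and the 9 Flt3-high and 6 Flt3-low arrays share most of their Vpreb1 range.

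The sides did not differ detectably in their labels, taken as deposited. The sex label did not match Xist in 6 of the 15 kept arrays. Whether the Erg, line and age labels belong to their arrays is therefore uncertain and was not tested. An Erg insertion was labelled in 3 of 9 Flt3-high and 2 of 6 Flt3-low mice (two-sided Fisher's exact test, p = 1). Line 6113 was labelled in 6 of 9 and 3 of 6 mice (two-sided Fisher's exact test, p = 0.622). The mean age label differed by -0.56 (Flt3-high minus Flt3-low; two-sided exact permutation test, p = 0.947). The difference between 3′ and 5′ probe sets of the array controls, a measure of RNA integrity, was 1.22 ± 0.35 (SD, n = 9) in the Flt3-high and 1.47 ± 0.75 (SD, n = 6) in the Flt3-low arrays. Male 10 had the highest value of the kept arrays, 2.96. The median correlation of array profiles was 0.963 within the Flt3-high side, 0.938 within the Flt3-low side and 0.963 between sides. The lowest correlation between arrays of different sides was 0.902. Correlations over the levels of all genes are high for any of these spleens, so they say little about whether the sides differ.

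Across genes, no gene passed the test. Of 18176 genes tested with limma, 0 (0%) were higher and 0 (0%) were lower in the Flt3-high arrays at an adjusted p under 0.05, and the smallest adjusted p was 0.997. At an unadjusted p under 0.05 there were 591 genes (3.25%), 287 higher and 304 lower, where 908.8 would be 5% of those tested. The median standard error of a difference was 0.048 and the median half-width of its 95% interval was 0.10. Both medians are over all tested genes, many of them near the floor, and say little about brighter genes. Igll1 and Cd79b, described below, had 95% intervals of -0.63 to 2.04 and -1.17 to 1.20. The median difference over all tested genes was -0.0046, with 8292 differences positive and 9884 negative. The 2 sides did not overlap in 3 genes that were higher (0.0165%) and 2 that were lower (0.011%) in the Flt3-high arrays. In the 12 arrays with Ebf1 above 6 (8 against 4), a setting chosen after seeing the data that leaves out Female 19, Female 8 and Male 10, 0 genes were higher and 0 lower (smallest limma adjusted p = 0.550). The genes named below are thus described with their values and intervals, and none is called changed between the sides.

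Igll1, the partner of Vpreb1, was above 7 in 9 of 9 Flt3-high and 5 of 6 Flt3-low arrays. Like other genes of B cell precursors, it varied within each side. Igll1 ran from 7.31 to 10.53 with a median of 9.56 in the Flt3-high arrays, and from 6.26 to 10.04 with a median of 8.55 in the Flt3-low arrays. The difference was 0.70 (95% interval -0.63 to 2.04), and the sides overlapped over most of their range. In the 32 arrays with low Vpreb1, Igll1 lay between 5.18 and 5.91. Igll1 was thus above that range in all 15 kept arrays, although only Vpreb1 and Flt3 had been used to choose them.

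Ebf1 was above 6 in 8 of 9 Flt3-high and 4 of 6 Flt3-low arrays, and in 0 of the 32 with low Vpreb1. It ran from 5.61 to 7.97 against 5.32 to 7.74, a difference of 0.41 (95% interval -0.61 to 1.42). The 3 kept arrays under 6 were Female 19 at 5.61, Male 10 at 5.40 and Female 8 at 5.32. Pax5, which commits precursors to the B lineage downstream of Ebf1, stayed between 5.30 and 5.65 in the Flt3-high and between 5.36 and 5.55 in the Flt3-low arrays, all near the floor. It lay between 5.25 and 5.43 in the 32 arrays with low Vpreb1. Its probe set was thus high in no array, so little Pax5 and a probe set that does not report it cannot be told apart.

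Il7r, the receptor chain for the cytokine that early lymphoid cells depend on, was 6.66 to 8.40 in the Flt3-high and 5.64 to 8.98 in the Flt3-low arrays. The lowest Il7r values were those of Female 8 (5.64) and Male 10 (5.97). Rag1, a subunit of the recombinase that cuts immunoglobulin genes, ran from 6.24 to 8.27 against 5.26 to 8.60, and Male 10 and Female 8 were again lowest. These low arrays stood apart in the same way for Cd79b and Vpreb3, which belong to the pre-B cell receptor and its assembly. Cd79b was 6.22 in Male 10 and 5.72 in Female 8, and Vpreb3 was 6.23 and 5.68. In the other 4 Flt3-low arrays, Cd79b was 8.46 or more and Vpreb3 was 8.03 or more. Male 10 also had the highest 3′ minus 5′ difference of the kept arrays (2.96), and Female 8 the lowest Vpreb1 (7.28). Whether either goes with the low values was not tested.

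Differences between the sides in these genes were small beside the spread within a side. They were 0.12 for Il7r (95% interval -0.97 to 1.21), 0.17 for Rag1 (-0.96 to 1.30), 0.015 for Cd79b (-1.17 to 1.20) and -0.04 for Vpreb3 (-1.22 to 1.15), and each turned sign under other settings. Blnk, an adaptor of the pre-B cell receptor, differed by 0.80 (95% interval -0.39 to 1.98), and Pou2af1, a B cell coactivator, by 0.59 (-0.60 to 1.79). Sox4, a survival factor of B cell precursors, differed by 0.77 (95% interval -0.44 to 1.98). Of the 22 tested genes of the surrogate light chain and pre-B list, 0 passed the test in either direction. Their differences were positive in 18 and negative in 4, with a median of 0.15, where all tested genes gave 8292 positive and 9884 negative. The mean level of the list was 6.503 to 7.89 (median 7.44) in the Flt3-high arrays and 5.96 to 7.74 (median 7.44) in the Flt3-low arrays.

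**Figure D2:**
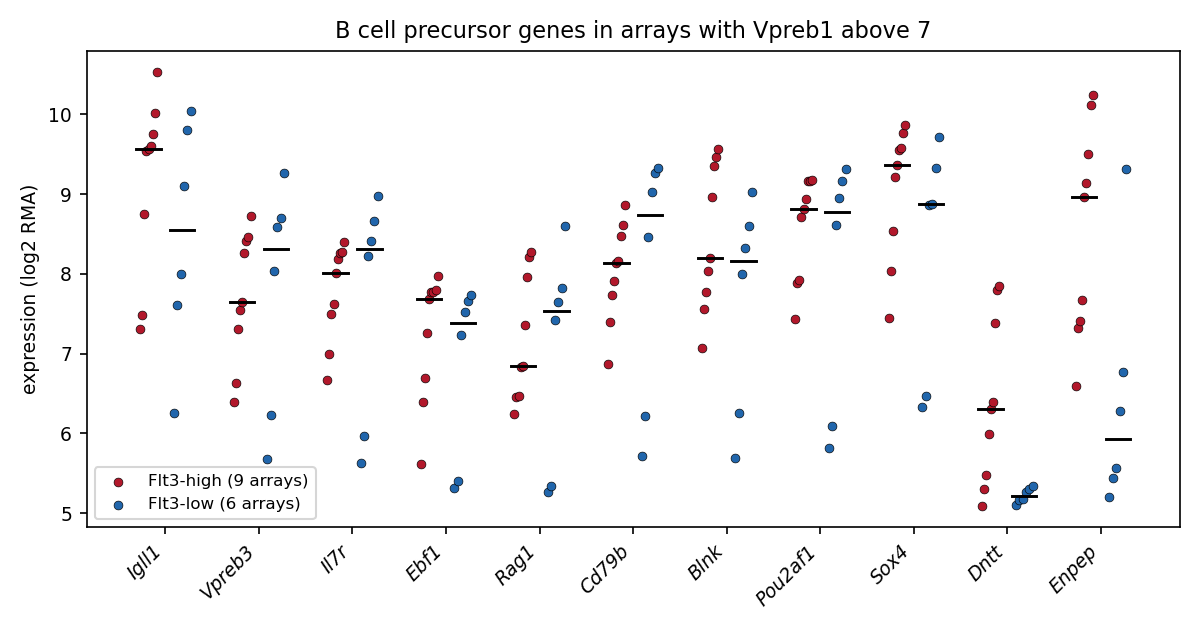
Log2 RMA values of 11 B cell precursor and early lymphoid genes in the 9 Flt3-high and 6 Flt3-low arrays. Points are arrays, spread sideways in order of value, and black lines are medians. The sides overlap in every gene shown, and Dntt is near the floor in all 6 Flt3-low arrays.

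Dntt, which encodes terminal transferase, the enzyme that adds untemplated bases at immunoglobulin joins in early lymphoid cells, was above 6 in 5 of 9 Flt3-high and 0 of 6 Flt3-low arrays. It was 7.85 in Male 3, 7.80 in Female 12, 7.39 in Male 16, 6.39 in Male 4, 6.31 in Female 1, 6.00 in Female 19, 5.48 in Male 6, 5.31 in Female 13 and 5.09 in Female 15. In the 6 Flt3-low arrays it lay between 5.11 and 5.34. Dntt was thus above 7 in 3 of 9 Flt3-high arrays and at the floor in others, Female 15 among them, whose Flt3 was 10.24. The difference of 1.18 (95% interval 0.29 to 2.06) did not pass the limma test (adjusted p = 0.997). Among arrays with low Vpreb1, 3 of 32 had Dntt above 7.

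Enpep was chosen after its values were seen because its difference was the largest. It encodes glutamyl aminopeptidase, known in the mouse as the BP-1 antigen of B cell precursors. It was 10.24 in Male 3, 10.11 in Male 16, 9.50 in Male 6, 9.14 in Female 1, 8.96 in Female 15, 7.68 in Female 12, 7.41 in Female 19, 7.32 in Female 13 and 6.60 in Male 4. In the Flt3-low arrays it was 9.32 in Male 17, 6.77 in Male 2, 6.28 in Male 10, 5.56 in Female 8, 5.45 in Female 4 and 5.20 in Female 9. Enpep was therefore above 7 in 8 of 9 Flt3-high arrays, in 1 of 6 Flt3-low arrays and in 0 of 32 with low Vpreb1. The difference was 2.12 (95% interval 0.61 to 3.62; limma adjusted p = 0.997).

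Of 25 tested genes of the early lymphoid and multipotent progenitor list, 14 differences were positive and 11 negative, with a median of 0.04, and 0 passed the test. Arpp21, a cAMP-regulated phosphoprotein, differed by 0.76 (95% interval 0.09 to 1.42). Its Flt3-high median was 5.57 with a highest value of 7.42, and its Flt3-low values lay between 5.25 and 5.45. Bcl11a, a transcription factor that early lymphoid cells need, ran from 6.17 to 8.37 against 6.07 to 7.59, a difference of 0.69 (95% interval 0.02 to 1.35).

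Socs2 had the clearest relation to the Flt3 level. It encodes a suppressor of cytokine signalling that is switched on by STAT5 and can bind activated receptors. It was 8.95 in Female 15, 8.78 in Female 12, 8.48 in Male 16, 8.36 in Male 3, 8.09 in Male 6, 8.07 in Female 1, 7.53 in Male 4, 6.76 in Female 13 and 6.54 in Female 19. In the Flt3-low arrays it was 6.93 in Male 2, 6.78 in Female 9, 6.74 in Male 17, 6.11 in Male 10, 5.90 in Female 8 and 5.72 in Female 4. The sides overlapped through Female 13 and Female 19, which had the lowest Flt3 of their side. Socs2 was above 7 in 7 of 9 Flt3-high, 0 of 6 Flt3-low and 2 of 32 arrays with low Vpreb1, and the difference was 1.58 (95% interval 0.80 to 2.37; limma adjusted p = 0.997).

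When the Flt3 level entered the limma fit as a number in place of the sides, Socs2 was the 1 gene that passed over all 18176 genes (0.0055%), and 0 genes (0%) were lower. It was higher by 0.45 log2 units per log2 unit of Flt3 (SE 0.057, 95% interval 0.32 to 0.57, n = 15, limma adjusted p = 0.027). With each array left out in turn the slope lay between 0.42 and 0.48 and the adjusted p between 0.0162 and 0.121. The call held in 6 of these 15 fits and was lost without Female 1, Female 4, Male 3, Male 6, Female 8, Female 9, Female 12, Male 10 or Female 15. It was also lost with the Vpreb1 level as a covariate (slope 0.42, adjusted p = 0.116) and in the 12 arrays with Ebf1 above 6 (slope 0.42, adjusted p = 0.251), both settings chosen after seeing the data.

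Myl10, a myosin light chain known from lymphocyte precursors, was the next gene in that fit, with a slope of 0.55 (SE 0.084, limma adjusted p = 0.108). It was 9.52 in Male 16, 8.36 in Female 15, 7.69 in Male 4, 7.66 in Male 3, 7.66 in Male 6, 7.52 in Female 1, 7.06 in Female 12, 6.33 in Female 19 and 5.71 in Female 13. In the Flt3-low arrays it was 6.26 in Female 4, 6.11 in Female 9, 5.19 in Male 10, 5.14 in Male 17, 5.11 in Male 2 and 5.08 in Female 8. It was above 7 in 7 of 9 Flt3-high arrays, 0 of 6 Flt3-low arrays and 0 of 32 with low Vpreb1. Female 13 lay under the highest Flt3-low values. The difference between the sides was 2.02 (95% interval 1.03 to 3.01; limma adjusted p = 0.997). In the fits on the Flt3 level with 1 array left out, Myl10 passed without Female 13 and without Male 16. In those fits P2rx3 also passed without Male 16, and Nfya without Male 17.

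**Figure D3:**
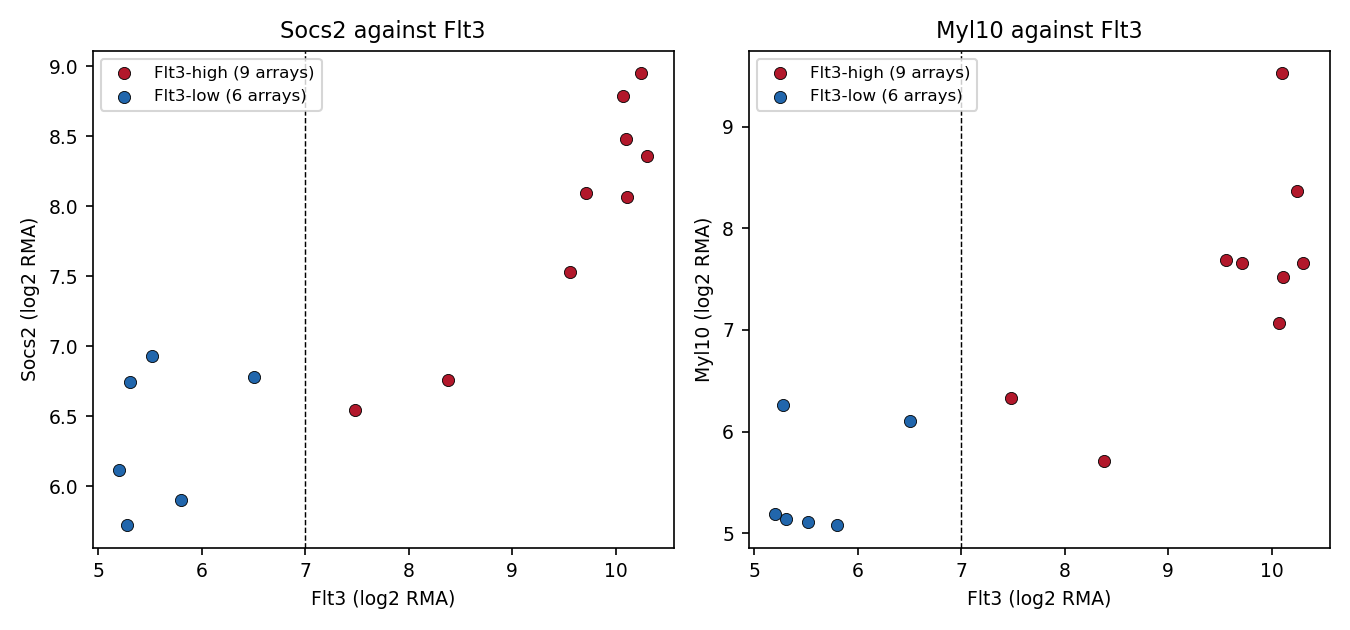
Socs2 (left) and Myl10 (right) against Flt3, as log2 RMA values in the 15 kept arrays. The dashed line marks the Flt3 level of 7. In the Flt3-high arrays with Flt3 of 9.56 or more, Socs2 is 7.53 or more and Myl10 is 7.06 or more.

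Among the other genes of the Flt3 signalling pathway, differences were small and of both signs. Of 31 tested members, 0 passed the test, 12 differences were positive and 19 negative, and their median was -0.03 beside -0.0046 over all genes. Socs2 and the phosphatase Ptprj, which dephosphorylates Flt3, were the 2 members with an unadjusted p under 0.05, beside 3.25% of all genes. Ptprj differed by 0.16 (95% interval 0.0006 to 0.32). The ligand Flt3l was not analysed here.

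Etv5 and Dusp6, both induced by MAP kinase signalling, were among the 19 with negative differences. Etv5, an ETS factor, was 6.79 in Female 9, 6.34 in Male 2, 6.83 in Male 17 and 6.60 in Female 4, above every Flt3-high array, whose highest value was 6.18 in Male 4. Female 8 (5.19) and Male 10 (5.41), the Flt3-low arrays with little Ebf1, had values within the Flt3-high range of 5.14 to 6.18. The difference was -0.51 (95% interval -1.08 to 0.06), and -0.89 in the 12 arrays with Ebf1 above 6, where it did not pass either (limma adjusted p = 0.804; a setting chosen after seeing the data). Dusp6, a phosphatase that acts on ERK, ran from 6.66 to 8.34 against 5.99 to 8.77, a difference of -0.43 (95% interval -1.29 to 0.44). Spry2 and Spry4, of the same list and near the floor, differed by -0.02 and -0.03.

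The STAT5 genes and Pim1 had differences of the opposite sign to Socs2, with intervals that include 0. Stat5a lay between 5.73 and 6.14 in the Flt3-high and between 5.78 and 6.41 in the Flt3-low arrays, a difference of -0.10 (95% interval -0.28 to 0.09). Stat5b was 8.31 in Female 9 and 6.34 or less in every other kept array, so its difference of -0.48 (95% interval -1.08 to 0.12) came with 1 high array. Pim1, a kinase gene induced by STAT5, ran from 6.99 to 8.46 against 7.13 to 9.11, a difference of -0.32 (95% interval -0.94 to 0.31). Pim2, of the same list, had a positive difference of 0.21 (95% interval -0.31 to 0.72).

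**Figure D4:**
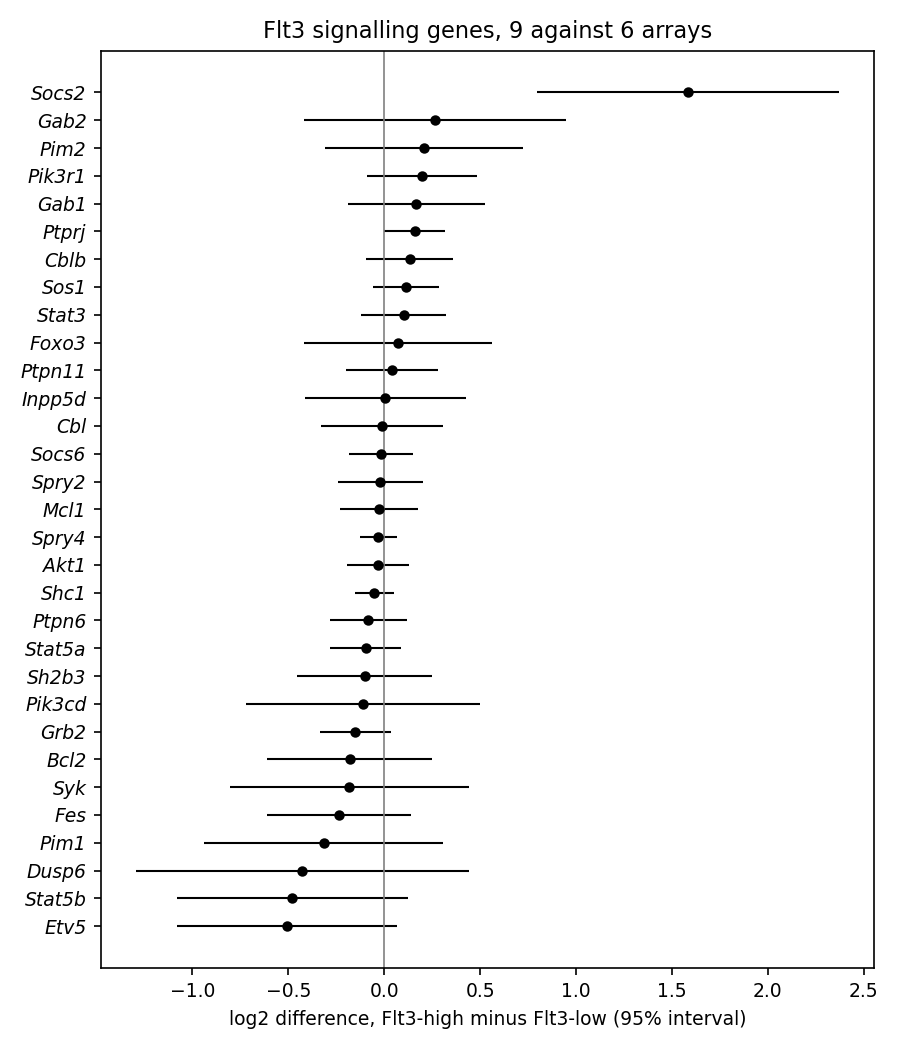
Log2 differences, Flt3-high minus Flt3-low, of the 31 tested genes of the Flt3 signalling list with their 95% limma intervals (9 against 6 arrays). Socs2 has the largest difference at 1.58, and the others lie between -0.51 and 0.27.

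The 5 genes whose sides did not overlap were named for that reason, after their values were seen, except Galnt3, which had the smallest unadjusted p. Galnt3, an enzyme that starts O-linked glycans, ran from 5.73 to 6.14 in the Flt3-high and from 5.45 to 5.70 in the Flt3-low arrays, a difference of 0.31 (95% interval 0.18 to 0.45). Kbtbd11 ran from 6.45 to 8.72 against 5.61 to 6.39, a difference of 0.92 (95% interval 0.28 to 1.55). P2rx3, an ATP-gated channel, ran from 5.38 to 7.18 against 5.16 to 5.26, a difference of 0.66 (95% interval 0.20 to 1.11). Male 16 held the highest Flt3-high value of all 3. Syt2 and Zfp668 differed by -0.05 and -0.06, all of their values lying between 5.06 and 5.35.

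On the lower side, Tmem119 had the largest difference of the 6 genes with the smallest unadjusted p, -0.70 (95% interval -1.13 to -0.27). It was 6.90 in Female 9, 6.31 in Female 4, 6.26 in Male 10, 6.01 in Male 17, 5.90 in Male 2 and 5.25 in Female 8. The Flt3-high arrays lay between 5.17 and 5.98, so 4 of the 6 Flt3-low arrays were above them. With the Vpreb1 level as a covariate the difference was -0.92 and still did not pass (limma adjusted p = 0.0872). Tmem119 did pass, together with Gmip, when the Flt3 level entered as a number with the Vpreb1 level as a covariate. That setting was chosen after seeing the data. Cd2, an adhesion molecule of T cells and of mouse B cells, ran from 5.23 to 6.20 against 5.37 to 7.41, a difference of -0.75 (95% interval -1.36 to -0.14).

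Other negative differences of more than 1 log2 unit came with 1 or 2 arrays. Male 10 held the eosinophil granule genes Prg2 at 11.78 and Epx at 11.30, where the Flt3-low medians were 5.63 and 5.15 and the highest Flt3-high values 6.32 and 5.36. In the same array the basophil protease Mcpt8 was 10.03 and Gata2, a factor of mast cells and basophils, was 7.77. The differences were -1.37 for Prg2 and -1.09 for Epx, and without Male 10 they were -0.33 and -0.07. Calb1, a calcium-binding protein, was named for its difference after its values were seen. Calb1 was 11.64 in Male 2 and 5.28 or less in every other kept array. Its difference of -1.05 became 0.05 without Male 2. Ghr, the growth hormone receptor, was 9.86 in Male 17 and 8.29 in Female 4, and the other kept arrays lay between 5.36 and 6.70. Its difference was -1.37 (95% interval -2.57 to -0.18), and -0.80 without Male 17.

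Erythroid, megakaryocyte, macrophage and neutrophil genes were present on both sides, and 0 members of any of the 23 gene lists passed the test. Erythroid genes had negative differences in 25 of 27 members, with a median of -0.28. Their mean level was 5.86 to 8.21 (median 7.05) in the Flt3-high arrays and 6.94 to 7.78 (median 7.32) in the Flt3-low arrays. Klf1, the erythroid master regulator, ran from 5.62 in Male 16 to 9.99 in Female 13 within the Flt3-high side alone. Its difference was -0.43 (95% interval -1.65 to 0.79), so the Flt3-low values of 7.55 to 9.33 lay inside the Flt3-high range.

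Megakaryocyte and platelet genes had positive differences in 14 of 18 members, with a median of 0.33, and 4 of the 18 had an unadjusted p under 0.05, beside 591 of 18176 (3.25%) over all genes. The mean level of the list was 6.49 to 7.63 against 6.18 to 7.22. Ppbp, a chemokine stored in platelets, ran from 8.92 to 10.34 against 7.94 to 9.96, a difference of 0.89 (95% interval 0.30 to 1.48). Clec1b, a platelet receptor, differed by 0.57 (95% interval 0.05 to 1.08), and Pf4, platelet factor, by 0.28 (95% interval -0.61 to 1.17).

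Monocyte and macrophage genes had positive differences in 19 of 24 members (median 0.08), and 9 of 13 late neutrophil granule genes did (median 0.08). Csf1r, the receptor of the macrophage growth factor, was 8.55 to 10.14 in the Flt3-high and 7.74 to 9.85 in the Flt3-low arrays. Vcam1, an adhesion molecule of splenic macrophages and stroma, differed by 0.48 (95% interval 0.11 to 0.86). S100a8, a neutrophil and monocyte calcium-binding protein, ran from 8.12 to 10.98 against 6.63 to 11.99, with Male 10 highest and Female 4 lowest. Interferon-stimulated genes had positive differences in 17 of 19 members, with a median of 0.18, and mean levels of 5.95 to 6.83 against 5.75 to 6.56. All 14 mast cell, basophil and eosinophil genes had negative differences (median -0.18). Their mean level was 7.38 in Male 10 and between 5.08 and 5.55 in every other kept array.

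**Figure D5:**
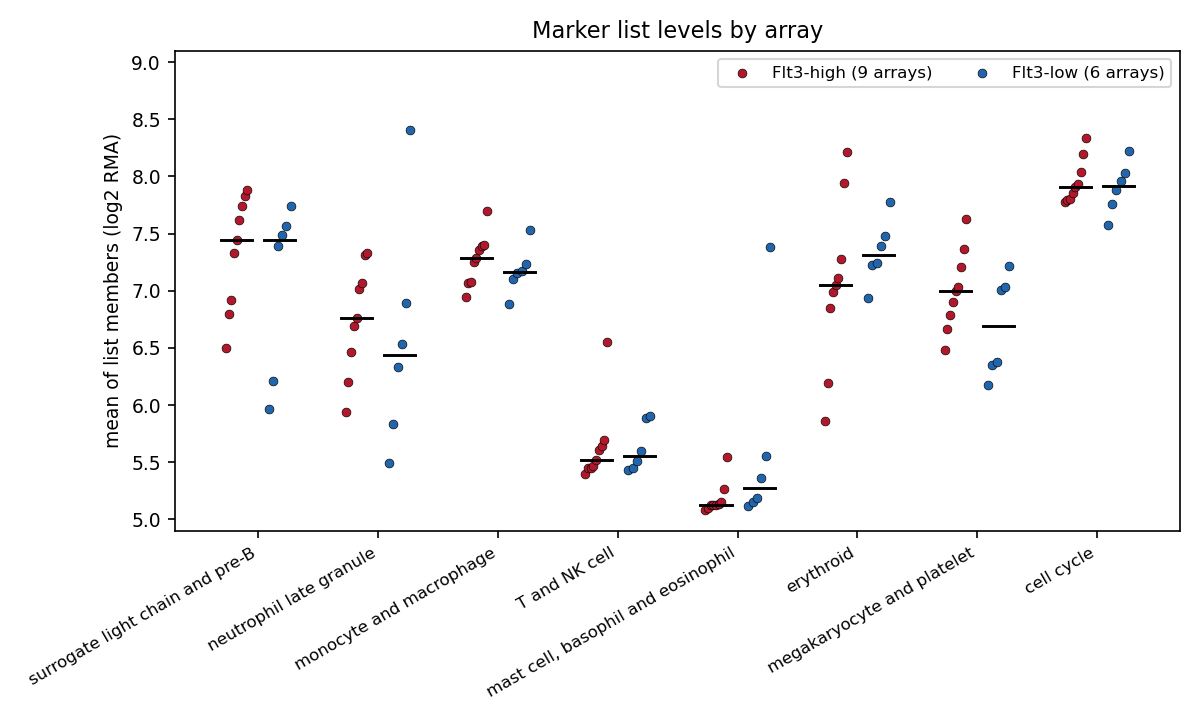
Mean log2 RMA level of the tested members of 8 marker lists in each of the 9 Flt3-high and 6 Flt3-low arrays. Points are arrays, spread sideways in order of value, and black lines are medians. The sides overlap in every list shown; single arrays stand out in the T and NK cell list (Female 19, 6.55), the mast cell, basophil and eosinophil list (Male 10, 7.38) and the neutrophil list (Male 10, 8.41).

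T cell genes were high in single arrays. Cd3d, a T cell receptor subunit, was 7.79 in Female 19 and 7.36 in Female 4, 1 array on each side, and 5.87 or less in the other kept arrays. Without both arrays, 0 genes passed in either direction (smallest limma adjusted p = 0.930). The T and NK cell list had 10 positive and 9 negative differences among 19 members, with a median of 0.00037. Siglech, the marker of plasmacytoid dendritic cells, which also carry Flt3, lay between 5.18 and 5.61 on both sides, near the floor.

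Genes of the stem cell Hox and Meis programme, which often accompany high FLT3 in human myeloid leukaemia, had a median difference of -0.002 over 19 tested members, 9 positive and 10 negative. The largest was that of Sox4, given above at 0.77. Hoxa7, Hoxa9, Hoxa10, Hoxb4, Hlf, Hmga2 and Lin28b were above 6 in 0 of 9 Flt3-high and 0 of 6 Flt3-low arrays. Differences are compressed near the floor, so the median says little about these members. Myb, Msi2 and Sox4 were above 6 in every kept array. Hoxa9 lay between 5.32 and 5.51 in the Flt3-high and between 5.36 and 5.52 in the Flt3-low arrays, a difference of -0.03 (95% interval -0.11 to 0.05). Erg, the gene of the insertion label, ran from 5.43 to 7.29 in the Flt3-high and from 5.49 to 6.69 in the Flt3-low arrays, a difference of 0.44 (95% interval -0.17 to 1.04). Its median was 7.00 in the arrays with low Vpreb1, 21 of 32 of which had the insertion label.

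The remaining lists had medians near that of all genes. The B lineage beyond the precursor stage gave 11 positive and 4 negative differences among mature B cell genes (median 0.03) and 6 and 5 among plasma cell genes (median 0.0034). Signalling genes of the B cell and pre-B cell receptors gave 12 and 10 (median 0.01). Plasmacytoid dendritic cell genes gave 14 and 4 (median 0.06), and conventional dendritic cell and MHC class II genes 13 and 6 (median 0.05). Among stem and progenitor genes 12 differences were positive and 8 negative (median 0.06), and among granulocyte and monocyte progenitor genes 7 and 7 (median -0.0048). The Notch pathway gave 10 and 6 (median 0.02), and receptor tyrosine kinases and cytokine receptors 10 and 13 (median -0.01). Cell cycle genes gave 17 and 7 (median 0.04), with list means of 7.78 to 8.34 in the Flt3-high and 7.58 to 8.22 in the Flt3-low arrays. Leukaemia oncogenes and suppressors gave 22 and 11 (median 0.05), and stroma and endothelium 13 and 11 (median 0.01).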

How the data were processed

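RNA of 47 leukaemic mouse spleens was measured on Affymetrix Mouse Genome 430 2.0 arrays, 1 per mouse. The deposited values are log2 expression values made with RMA in the affy package for R 2.15, per the submitters' processing notes; scanner files were not used here. RMA quantile normalizes the arrays, and differences of dim genes are compressed near its floor. Gene names came from the platform annotation; of 45101 probe sets, 34945 named a single gene. The probe set with the highest mean over the 47 arrays stood for its gene (18193 genes). A gene had to exceed log2 5 on 9 or more arrays. Arrays were chosen by Vpreb1 and Flt3 (cut at log2 7), and leaving both genes out gave 18176 tests. These were fitted in R 4.3.3 with limma 3.58.1 (lmFit, eBayes), without covariates, and p-values were adjusted across all of them by the Benjamini-Hochberg method at a threshold of 0.05. The procedure was tried on the kept arrays with shuffled sides and known shifts added to some genes. The share of those genes recovered is not given here. Each array is a separate mouse, and their number limits the precision.

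The members and the 23 gene lists (470 genes, 420 tested) were chosen with earlier results of these data known. Named genes are the 6 with the lowest unadjusted p in each direction, and the first 3 genes and the 2 lowest p of every list. Any member of the Flt3 signalling, early lymphoid or pre-B lists could also be named. Others are said to have been chosen after their values were seen, except Gmip and Nfya, named because they passed in an alternative fit. Alternatives varied the cuts, covariates, filter, probe set choice, centring and eBayes settings, used the Flt3 level as a number, and left out each array. A contrast of Flt3 within arrays of low Vpreb1, and its interaction, could not be fitted because 0 of those 32 arrays had Flt3 above 7.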

Additional observations from a re-analysis of the deposited data

Results flagged for a closer look

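In 24 of 178 groups of values checked (13.5%), 1 array lay far from the rest of its side by Dixon's test. The groups include Flt3 and Vpreb1, by which the arrays were chosen, and genes named after their values were seen. The usual chance rate of about 1 in 20 therefore does not apply to this share. Values are log2 levels, with the nearest other array of the side in brackets. Male 10, of the Flt3-low side, was high in Prg2 at 11.78 (6.29), Epx at 11.30 (5.66), Ms4a2, a mast cell and basophil receptor chain, at 7.91 (5.66) and Gata2 at 7.77 (6.13). It was low in Npm1, a nucleolar protein, at 9.93 (10.59) and in the interferon-stimulated gene Xaf1 at 5.37 (6.25). Male 10 also had the highest 3′ minus 5′ difference of the kept arrays, 2.96.

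Female 1, of the Flt3-high side, was the highest of its side in the same granulocyte genes. Mcpt8 was 7.70 (6.31) and Prg2 6.32 (5.23), while Ms4a2 at 5.62 (5.23) and Epx at 5.36 (5.17) lay near the floor. Female 19 was high in Cd3d at 7.79 (5.87) and low in the progenitor factors Bcl11a at 6.17 (7.29) and Lyl1 at 6.06 (6.88). Male 16 was high in Kbtbd11 at 8.72 (7.30) and P2rx3 at 7.18 (6.08) and low in Rbpj, the Notch effector, at 5.76 (6.04). Female 13 was high in Ghr at 6.70 (5.56). Female 13 was also the highest of its side in Calb1 at 5.28 (5.11), and Male 6 in the embryonic globin Hbb-bh1 at 5.72 (5.25), both near the floor.

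On the Flt3-low side, Male 2 was high in Calb1 at 11.64 (5.10), and its Lag3 of 5.26 (5.14) was the highest of the side but near the floor. Female 9 was high in Stat5b at 8.31 (6.34) and in the interferon-induced Gbp2 at 7.45 (6.42), and Female 4 in Cd3d at 7.36 (5.81).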

How the results depend on the processing

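With the Flt3 level as a number, 1 gene was higher, Socs2; under every setting run that compared the sides, including each array left out, 0 genes were higher and 0 lower, with smallest adjusted p-values between 0.0872 and 0.9999 and 149 to 1162 genes or probe sets at an unadjusted p under 0.05. With the Flt3 level as a number and the Vpreb1 level as a covariate, 2 genes passed, Gmip and Tmem119. Signs turned for genes whose intervals include 0, and unless stated the cause was not tested. Vpreb3 differed by 0.42 with Flt3 above 6.5, 0.32 with Flt3 above 8, 0.23 with Vpreb1 above 6.5, 0.32 without the arrays with Cd3d above 7 and 0.096 per unit of Flt3. With Vpreb1 above 8 the values were -0.28 for Il7r, -0.17 for Rag1, -0.44 for Cd79b and -0.000571 for Pax5; this setting leaves out Female 8. With Vpreb1 as a covariate they were -0.35 for Il7r, -0.19 for Rag1, -0.0239 for Ebf1, -0.48 for Cd79b, -0.019 for Pax5 and 0.10 for Cd3d. With Erg label and line they were -0.00145 for Il7r and -0.12 for Cd79b, and with the identifier number -0.051 for Cd79b. With the 3′ minus 5′ difference they were -0.12 for Il7r, -0.0387 for Rag1 and -0.20 for Cd79b. In the arrays with Ebf1 above 6 they were -0.66 for Il7r, -0.60 for Rag1, -0.12 for Ebf1, -0.857 for Cd79b, -0.28 for Pou2af1, -0.00365 for Pax5 and 0.16 for Pim1. The Ebf1 value there has no weight, since the arrays were selected on Ebf1 itself. Stat5b was 0.11 with Flt3 above 6.5, which moves Female 9 to the other side. With Vpreb1 above 6.5, Cd3d was 0.030, Csf3r -0.17 and the age difference 3.30, and without the arrays with Cd3d above 7 Cd3d was 0.028, a value that likewise follows a selection on Cd3d itself. Mycn was 0.22 with its most variable probe set. Leaving out single arrays gave -0.45 to 0.27 for Vpreb3, -0.28 to 0.39 for Il7r, -0.18 to 0.49 for Rag1, -0.44 to 0.28 for Cd79b, -0.27 to 0.27 for Cd3d, -0.000571 to 0.049 for Pax5 and -1.29 to 0.047 for Calb1.

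No paired analysis was possible because every array is a separate mouse and the replicate numbers in the titles only count the mice. The contrast within arrays of low Vpreb1 and the interaction could not be fitted under any setting. Genes near the floor have compressed differences, so a true difference there is understated.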
